A study of Mus musculus and Rattus norvegicus with 37 samples.

Results

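The claudins and tight junction genes were 9 genes found by symbol in 4 tables of liver RNA-seq: Cldn1, Cldn2, Cldn3, Cldn5, Cldn12, Cldn14, Ocln, Tjp1 and F11r. The mouse tables held 47929 gene names that occur once, and those from rats 28026. Cldn1 brought the set into view because its LNA29 response differed between the genotype labels. The LNA29 values of all members in mice are therefore given as a description, with no test. The members and the further gene lists below were chosen with earlier results of these data known. The adjusted p-values given for the other comparisons and for the lists carry that limit.

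The study asked how the liver transcriptome responds to inhibition of the miR-29 family, and whether hepatic Sirt1 is needed for the response. LNA29 is a pair of locked nucleic acid inhibitors, against miR-29a and against miR-29b/c, given as 1 subcutaneous injection of 20 mg/kg each, with saline as the control and fed liver as the tissue. Of the 37 libraries, 21 were from female C57BL/6J mice and 16 from male Zucker rats. One pooled group, WT/Floxed, joined WT mice of 9 to 11 weeks with floxed mice of 15 to 20 weeks, which carry the floxed Sirt1 allele without its deletion. It had 8 LNA29 libraries (4 WT and 4 floxed) and 5 saline libraries (3 WT and 2 floxed), after the authors had left out 1 floxed saline library. The L-Sirt1 KO group, with a liver-specific deletion of Sirt1, consisted of littermates of the floxed mice at the same ages, with 4 LNA29 and 4 saline libraries. The rat groups were Zucker fatty rats (ZFR, fa/fa, 4 libraries) and Zucker lean rats (ZLR, 4 libraries) at 5.5 months, and ZFR at 3 months. The latter received BT2, an inhibitor of branched-chain ketoacid dehydrogenase kinase, at 20 mg/kg in dimethylsulfoxide daily for 1 week (4 libraries), or vehicle (4 libraries).

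Tight junctions seal the space between neighboring epithelial cells. Between hepatocytes they close off the bile canaliculus and keep bile apart from blood. Claudins are membrane proteins with 4 transmembrane segments that form either the barrier or selective pores. Occludin and junctional adhesion molecule A join them in the membrane, and zonula occludens proteins tie them to actin inside the cell.

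The values were normalized counts, that is, estimated read counts divided by a factor for each library, and each table had its own factors. Mouse libraries held an estimated 42600000 to 78000000 reads, and 1 read was worth 0.746 to 1.37 normalized counts. Rat libraries held 188000 to 58500000 reads, 12 of 16 had fewer than 5000000 reads, and 1 read was worth up to 10.5 normalized counts. Hepatocyte markers were detected in every group, with a summed level of 4347391 to 7462776 in mice and 171152 to 280415 in rats. Sirt1 was at 586 ± 30.6 (SD, n = 4) in saline libraries labelled L-Sirt1 KO and at 591 ± 81.2 (SD, n = 5) in WT/Floxed saline libraries. A count over the whole gene does not check a deletion of part of it, so the former are called libraries labelled L-Sirt1 KO. The paper measured Sirt1 in the livers of both genotypes by RT-qPCR, and those values are not examined here. Gene levels in bulk liver cannot tell fewer cells of a type from less RNA per cell.

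The miRNAs that LNA29 targets are shown because their shared seed defines the sites looked for in the members. The mature mouse sequences are from RefSeq (GRCm38.p6), with bases 2 to 8, the seed, in capitals.
mmu-miR-29a-3p: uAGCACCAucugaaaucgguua
mmu-miR-29b-3p: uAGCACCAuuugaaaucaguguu
mmu-miR-29c-3p: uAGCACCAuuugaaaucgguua
All carry the same seed. Its reverse complement, TGGTGCT, was searched on the transcript strand of the 3′ UTRs of GENCODE M21 (GRCm38, the assembly that mm10 names). Cldn1 held 2 matches and Ocln 1, and the letters were not found in the annotated 3′ UTRs of the other 7 members. The sites are printed below with the match in capitals and 11 bases on each side.
Cldn1, chr16:26357571-26357599, minus strand: gatttgcatctTGGTGCTatcacttaatt
Cldn1, chr16:26357698-26357726, minus strand: tggcctcttgtTGGTGCTgttttgttttg
Ocln, chr13:100496891-100496919, minus strand: cttttccaacgTGGTGCTaccactgcagg
The first Cldn1 site and the Ocln site are followed by an A. The Cldn1 sites start at bases 1450 and 1323 of a 3′ UTR of 2396 bases, and the Ocln site at base 1906 of 2307, in 1 of 4 annotated transcripts with a 3′ UTR. A match in some 3′ UTR was present in 16.3% of 13483 genes that had one and were tested in the WT/Floxed table, and in 24.7% of the 1945 whose longest 3′ UTR lay within 20% of the length of that of Cldn1. At least 2 matches in a transcript were present in 3.75% of the latter. Such a match is a description of the letters and does not show that the miRNA binds there.

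Cldn1 (chr16:26356642-26371841, minus strand), a barrier-forming claudin of hepatocytes and bile ducts, was higher after LNA29 in both mouse tables. In WT/Floxed saline livers its normalized counts were 5890, 6702, 7176, 6392 and 6715. The 8 WT/Floxed LNA29 livers ranged from 7768 through a median of 8587 to 10182. The lowest treated library was thus above the highest saline library.

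In saline libraries labelled L-Sirt1 KO, Cldn1 was at 4401, 4300, 3151 and 3823 normalized counts. In LNA29 libraries with that label it was at 8521, 9173, 8448 and 9345. These groups did not overlap either, and the gap was wider. The log2 fold change of LNA29 over saline was 0.41 ± 0.0783 (SE) in WT/Floxed mice, a ratio of means of 1.34, and 1.19 ± 0.111 (SE) under the L-Sirt1 KO label, a ratio of 2.26. The difference of these fold changes was 0.78 ± 0.132 (SE) on the log2 scale. This is the value by which the set was chosen.

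The libraries labelled L-Sirt1 KO stood apart from WT/Floxed libraries in Cldn1 mainly under saline. The ratio of mean Cldn1 counts, L-Sirt1 KO label over WT/Floxed, was 0.596 in saline livers and 1.01 in LNA29 livers. The same ratio had a median of 1.02 over all genes in each treatment. The tables were normalized separately, so these ratios are set across tables and carry no test.

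WT and floxed mice within the pooled group are shown apart because floxed mice share the age and litters of the L-Sirt1 KO mice. In WT mice Cldn1 was at 6486 ± 648 (SD, n = 3) under saline and 9489 ± 645 (SD, n = 4) after LNA29, a log2 difference of 0.55. In floxed mice it was at 6709 ± 8.72 (SD, n = 2) and 8070 ± 335 (SD, n = 4), a log2 difference of 0.27. Cldn1 was higher in LNA29 than in saline livers within each of 3 codes in the sample descriptions, by 0.25 to 0.51 in WT/Floxed mice and by 0.97 to 1.43 under the L-Sirt1 KO label. The 0.25 rests on 1 saline library, and under the L-Sirt1 KO label each code had only 1 library in at least 1 treatment group. The code has the form of a flow cell identifier, but the labels do not say what it is, and it is called the description code here.

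**Figure D1:**
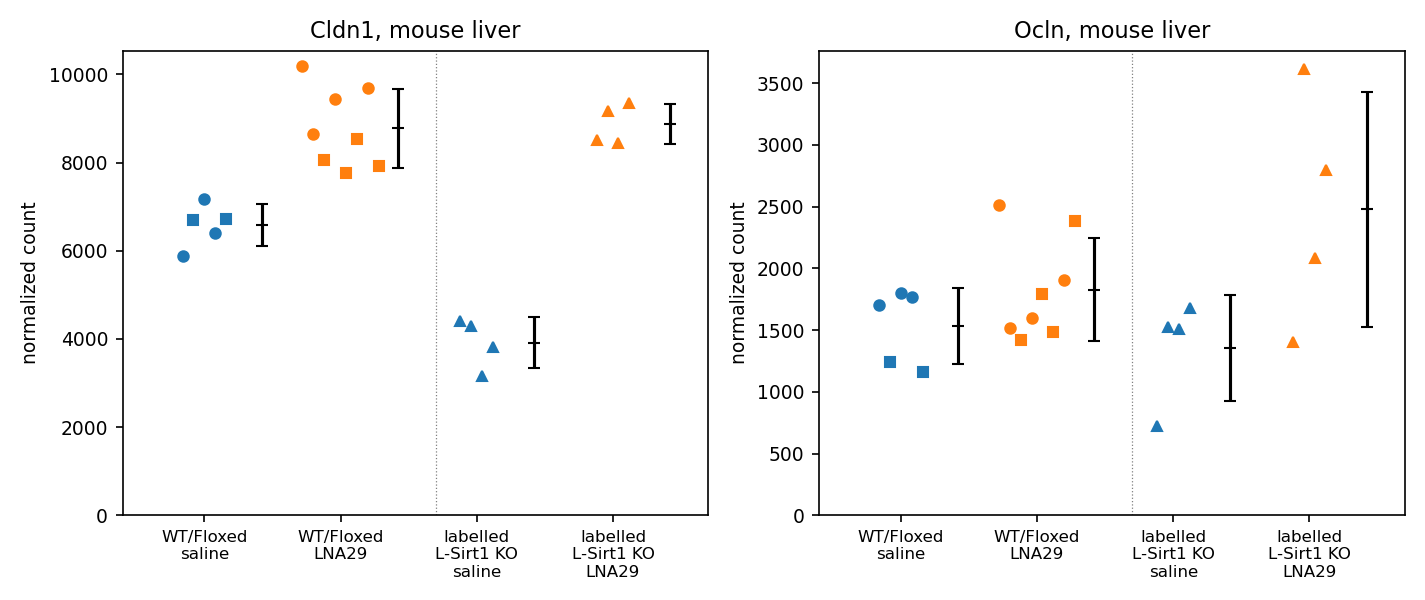
Normalized counts of Cldn1 (left) and Ocln (right) in each mouse liver library, by genotype label and treatment (circles, WT; squares, floxed; triangles, labelled L-Sirt1 KO; blue, saline; orange, LNA29), with mean ± SD at the right of each group and a dotted line between the separately normalized tables. For Cldn1 every LNA29 library lies above every saline library of its table, while the Ocln groups overlap.

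The other claudins showed smaller differences after LNA29. Cldn2 (chrX:139800828-139811386, plus strand), which forms cation- and water-permeable pores, had log2 fold changes of -0.01 ± 0.0761 (SE) in WT/Floxed mice and 0.00 ± 0.0866 (SE) under the L-Sirt1 KO label. Its counts were 5852 ± 461 (SD, n = 5) in WT/Floxed saline and 5824 ± 573 (SD, n = 8) in WT/Floxed LNA29 livers. Cldn2 stood at 4674 ± 222 and 4679 ± 433 (SD, n = 4 each) in the corresponding L-Sirt1 KO libraries, so the treated and control means were nearly equal in each table.

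Cldn3 (chr5:134986214-134987472, plus strand), another barrier claudin of hepatocytes and bile ducts, had log2 fold changes of -0.08 ± 0.111 and 0.05 ± 0.119 (SE). Cldn5 (chr16:18776847-18778262, plus strand), the main claudin of endothelium, had 0.09 ± 0.143 and 0.06 ± 0.132 (SE). All of these are within their standard error, in the order WT/Floxed and L-Sirt1 KO label. Cldn3 overlaps an antisense gene, Wbscr25, by 40 bases, and whether counting used strand is not given in the sources used here. Other members overlap annotated genes on their own strand, Cldn14 with Gm49618 by 1145 bases and Tjp1 with Gm44792 and Gm44794 by 1628 and 411 bases. Tjp1 also overlaps a pseudogene on the other strand, Gm44795, by 319 bases.

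Cldn12 and Cldn14 had opposite signs in the mouse tables. Cldn12 (chr5:5489537-5514958, minus strand), an unusual claudin without the usual C-terminal PDZ-binding motif, had a log2 fold change of -0.14 ± 0.0929 (SE) in WT/Floxed mice and 0.19 ± 0.157 (SE) under the L-Sirt1 KO label. Cldn14 (chr16:93919031-94008837, minus strand), known for its part in hearing and in renal calcium handling, had 0.11 ± 0.138 (SE) and -0.18 ± 0.0943 (SE). Under the L-Sirt1 KO label, Cldn14 was at 666, 611, 615 and 581 normalized counts with saline and at 572, 580, 515 and 517 with LNA29. These values do not overlap, although the lowest saline and highest treated libraries were 1 count apart.

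Ocln (chr13:100496507-100552718, minus strand) encodes occludin, and its values spread widely under the L-Sirt1 KO label. There it was at 724, 1527, 1507 and 1676 normalized counts with saline and at 1406, 3617, 2087 and 2798 with LNA29. Of the treated libraries, 3 were above all saline libraries and 1 was not. The log2 fold change was 0.85 ± 0.327 (SE), a ratio of means of 1.82. In WT/Floxed mice the log2 fold change was 0.25 ± 0.159 (SE), with levels of 1534 ± 306 (SD, n = 5) and 1826 ± 417 (SD, n = 8), and the groups overlapped. The log2 difference was 0.07 within WT mice and 0.53 within floxed mice, where the saline livers were at 1243 and 1162.

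F11r (chr1:171437535-171464603, plus strand) encodes junctional adhesion molecule A, an immunoglobulin-like adhesion protein. In WT/Floxed mice its counts were 4123, 3569, 3985, 4247 and 3553 under saline and ranged from 4221 through a median of 4541 to 4785 after LNA29. The highest saline library was above the lowest treated one. The log2 fold change was 0.22 ± 0.0612 (SE) there and 0.07 ± 0.0827 (SE) under the L-Sirt1 KO label. Tjp1 (chr7:65296165-65527781, minus strand), the scaffold protein ZO-1, had log2 fold changes of 0.04 ± 0.134 and 0.20 ± 0.0942 (SE) in the same order.

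**Figure D2:**
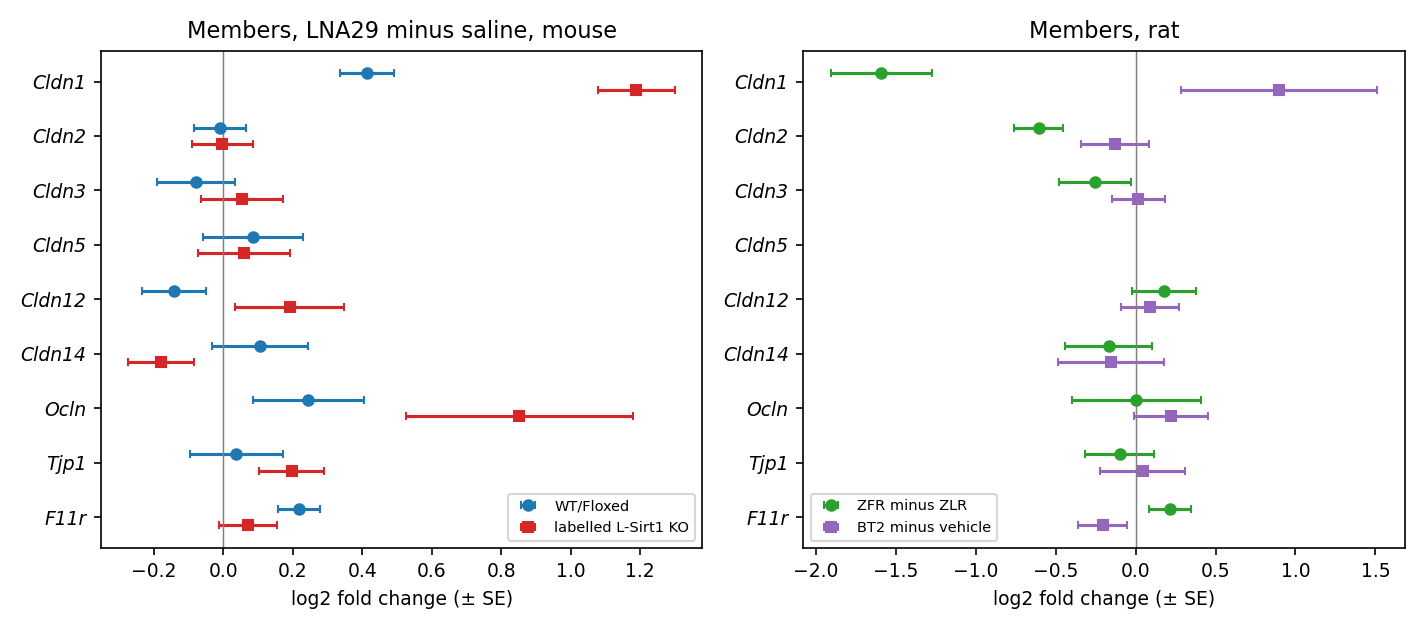
Log2 fold changes of the 9 members with their standard errors, left for LNA29 over saline in the mouse tables and right for ZFR over ZLR and BT2 over vehicle in rats, where Cldn5 was too low to be fitted. Cldn1 has the largest fold change among the members in all 4 comparisons, above 0 with LNA29 and below 0 in ZFR. It was chosen for its LNA29 response, so nothing is read from its rank in the mouse tables. With BT2 the Cldn1 value was 0.90 ± 0.615 (SE) and was not called. Its sign with BT2 differed between the description codes, at 2.11 and -0.32.

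Across whole tables the background was as follows. A mouse gene was called when p was under 0.05, adjusted p under 0.2, mean count over 50 and fold over 1.2. With limma on log2(count + 1), LNA29 calls made up 4.35% of 15811 genes in the WT/Floxed table and 1.87% of 15885 genes under the L-Sirt1 KO label. In each of these, 1 of 9 members, Cldn1, met these thresholds. Groups did not overlap for 1.51% of genes in WT/Floxed mice and for 6.95% under the L-Sirt1 KO label, against 1 member (Cldn1) and 2 members (Cldn1 and Cldn14). The difference between the LNA29 fold changes passed an adjusted p of 0.2 for 0.0449% of 15601 genes, that is 7 genes, with Cldn1 as 1 of them. This count was 0 without LNA29 replicate 2 or 4 of the L-Sirt1 KO label or WT/Floxed saline replicate 3, and reached 233 without saline replicate 3 of the L-Sirt1 KO label, while the Cldn1 difference lay between 0.67 and 0.84 over all 21 fits without 1 library and was no longer called where the count was 0. Since the members were chosen on these contrasts, nothing is read from their counts or from whether a member met a threshold. Cldn1 was chosen for this difference, so its place among the 7 genes is no test of it. The median log2 fold change of the members was 0.09 in WT/Floxed mice and 0.07 under the L-Sirt1 KO label, against 0.00 over all genes tested in each table.

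The other tight junction genes, a list of 43 further claudins, adhesion proteins, scaffolds and polarity proteins, gave 1 call in either mouse comparison, the same gene. Of all genes tested, 4.35% were called in WT/Floxed mice and 1.87% under the L-Sirt1 KO label. Cxadr, the coxsackie and adenovirus receptor, a membrane adhesion protein of the junction, rose with LNA29. In WT/Floxed mice it moved from 4315 ± 407 (SD, n = 5) up to 5257 ± 497 (SD, n = 8), which is 0.28 ± 0.0817 in log2 units (SE, limma adjusted p = 0.118). Under the L-Sirt1 KO label it moved from 3738 ± 326 up to 5258 ± 285 (SD, n = 4 each), which is 0.50 ± 0.0883 in log2 units (SE, limma adjusted p = 0.0645). The remaining 32 and 33 genes tested were not called, and the list medians were 0.03 and 0.10. None of the 33 tested in both tables was called for a difference between the fold changes (limma), and 2 had an unadjusted p under 0.05.

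The Cxadr calls depended on single libraries. In WT/Floxed mice it was lost in 5 of 13 fits, those without LNA29 replicate 1 or 8 or saline replicate 1, 2 or 4, with adjusted p up to 0.252, and also with no minimum count. Under the L-Sirt1 KO label it was lost without LNA29 replicate 3 or 4, with adjusted p up to 0.21. Cxadr is overlapped by Btg3 on the other strand over 27138 bases, and the counting's use of strand is not known. No TGGTGCT match was found in its annotated 3′ UTRs.

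Among 14 adherens and gap junction genes, 1 was called in each mouse table, against 4.35% and 1.87% of all genes tested. Gjb2, connexin 26, a gap junction channel, fell in WT/Floxed mice from 16457 ± 1613 (SD, n = 5) down to 12661 ± 1828 (SD, n = 8), which is -0.39 ± 0.102 in log2 units (SE, limma adjusted p = 0.0883). Ctnnb1, beta-catenin, which links cadherins to actin and carries Wnt signals, rose under the L-Sirt1 KO label from 13369 ± 1566 to 18129 ± 430 (SD, n = 4 each). Its log2 fold change was 0.45 ± 0.0926 (SE, adjusted p = 0.102 by limma), and the call was lost without LNA29 replicate 2, 3 or 4, with adjusted p up to 0.287. Both genes moved the same way in the other table without being called. Gjb2 had -0.356 ± 0.105 under the L-Sirt1 KO label (log2, SE, adjusted p = 0.248 by limma). Ctnnb1 had 0.278 ± 0.106 in WT/Floxed mice (log2, SE, adjusted p = 0.257 by limma). None of the 14 genes was called for a difference between the fold changes (limma).

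Markers of other cells and of liver zones moved in part with LNA29. In WT/Floxed mice the fold changes of all 8 cholangiocyte markers were above 0, none was called, and their summed level was 4212 to 7338 with LNA29 and 3665 to 5028 with saline. Under the L-Sirt1 KO label 5 of these markers had fold changes above 0 and 3 below, and none was called. There the sums were 4343 to 8465 with LNA29 and 4555 to 7610 with saline. Of 8 endothelial markers, Lyve1 was called lower in each table, and the summed levels overlapped, at 8903 to 15330 against 10766 to 14527 in WT/Floxed mice. Of 6 macrophage markers, the Kupffer cell receptors Vsig4 and Clec4f were called lower under the L-Sirt1 KO label, at -0.544 ± 0.107 and -0.289 ± 0.0762 in log2 units (SE, adjusted p = 0.0891 and 0.189 by limma). Their list had a median of -0.343 there and -0.435 in WT/Floxed mice, where none was called, and its summed level under the L-Sirt1 KO label was 9292 to 11946 with LNA29 and 11561 to 13769 with saline. None of 7 stellate cell and 8 pericentral markers was called in either table (limma), with 1 and 1 at an unadjusted p under 0.05 in WT/Floxed mice and 0 and 3 under the L-Sirt1 KO label. Of 7 periportal markers, Gls2 and Hal were called lower in WT/Floxed mice, at -0.671 ± 0.166 and -0.376 ± 0.106 (log2, SE, adjusted p = 0.0645 and 0.108 by limma), and none under the L-Sirt1 KO label. Of 6 hepatocyte markers, Apoa1 was called higher and Tat lower in WT/Floxed mice. No marker of these lists was at 0 in all libraries of a mouse group. The part of these cells in the members' values was not tested.

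In the rats Cldn1 was lower in ZFR than in ZLR. ZLR libraries were at 128, 97.9, 63.2 and 62.7 normalized counts and ZFR libraries at 40.6, 27.1, 16.7 and 29.6, with no overlap. The log2 fold change was -1.59 ± 0.318 (SE), a ratio of means of 0.324, with an adjusted p of 0.0214 by limma over 8633 genes. A rat gene was called at an adjusted p under 0.05, which 4.25% of the genes passed, 155 of them higher and 212 lower in ZFR, and Cldn1 was the 1 called member among the 8 tested. The log2 difference was -1.46 and -1.73 within the description codes, each with 2 libraries a group.

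The depth behind these values was uneven. The ZLR values of 63.2 and 62.7 each rest on about 6 reads, with exact 95% Poisson intervals of 23.2 to 138 and 23 to 136 that cover counting error only. Without these libraries, which are under 500000 reads, the log2 fold change was -2.0 (adjusted p = 0.00703 by limma), a setting chosen after the depths were seen. The call was lost in 5 of the 8 fits that left out 1 library, those without ZLR replicate 1 or 2 or ZFR replicate 2, 3 or 4, with adjusted p of 0.0531 to 0.0659 and log2 fold changes of -1.37 to -1.63. It was also lost with TMM scaling (adjusted p = 0.0557) and with no minimum count (adjusted p = 0.0694).

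Cldn2 pointed the same way and missed the threshold. It was at 231, 283, 314 and 218 normalized counts in ZLR and at 177, 147, 162 and 197 in ZFR, with no overlap. The log2 fold change was -0.61 ± 0.152 (SE, adjusted p = 0.0581 by limma), with -0.55 and -0.66 within the description codes. The adjusted p passed the threshold with a pseudocount of 10 (0.0478), with quality weights (0.00241) and without ZLR replicate 4 (0.0392). It did not pass in the other 12 alternatives, where it lay between 0.0621 and 0.169, among them TMM (0.127), no minimum count (0.111), the replicate block (0.163) and 7 of the 8 fits without 1 library. Groups did not overlap for 14.5% of the genes tested, against 2 of the 8 members, Cldn1 and Cldn2.

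None of the remaining members passed the test between ZFR and ZLR. Cldn3 had a log2 fold change of -0.25 ± 0.223, Cldn14 -0.17 ± 0.273, Tjp1 -0.10 ± 0.215, Ocln 0.00 ± 0.404, Cldn12 0.18 ± 0.203 and F11r 0.21 ± 0.131 (SE, adjusted p from 0.454 to 0.997 by limma). The 95% interval for Ocln reached from -0.90 to 0.91, so a change of the size seen for Cldn2 was not detectable there. Cldn5 had a mean below the minimum of 10 and was not tested, with 0 to 10.5 counts in ZLR and 0 to 10.4 in ZFR. The median over the 8 members tested was -0.14, against 0.07 over all genes tested.

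**Figure D3:**
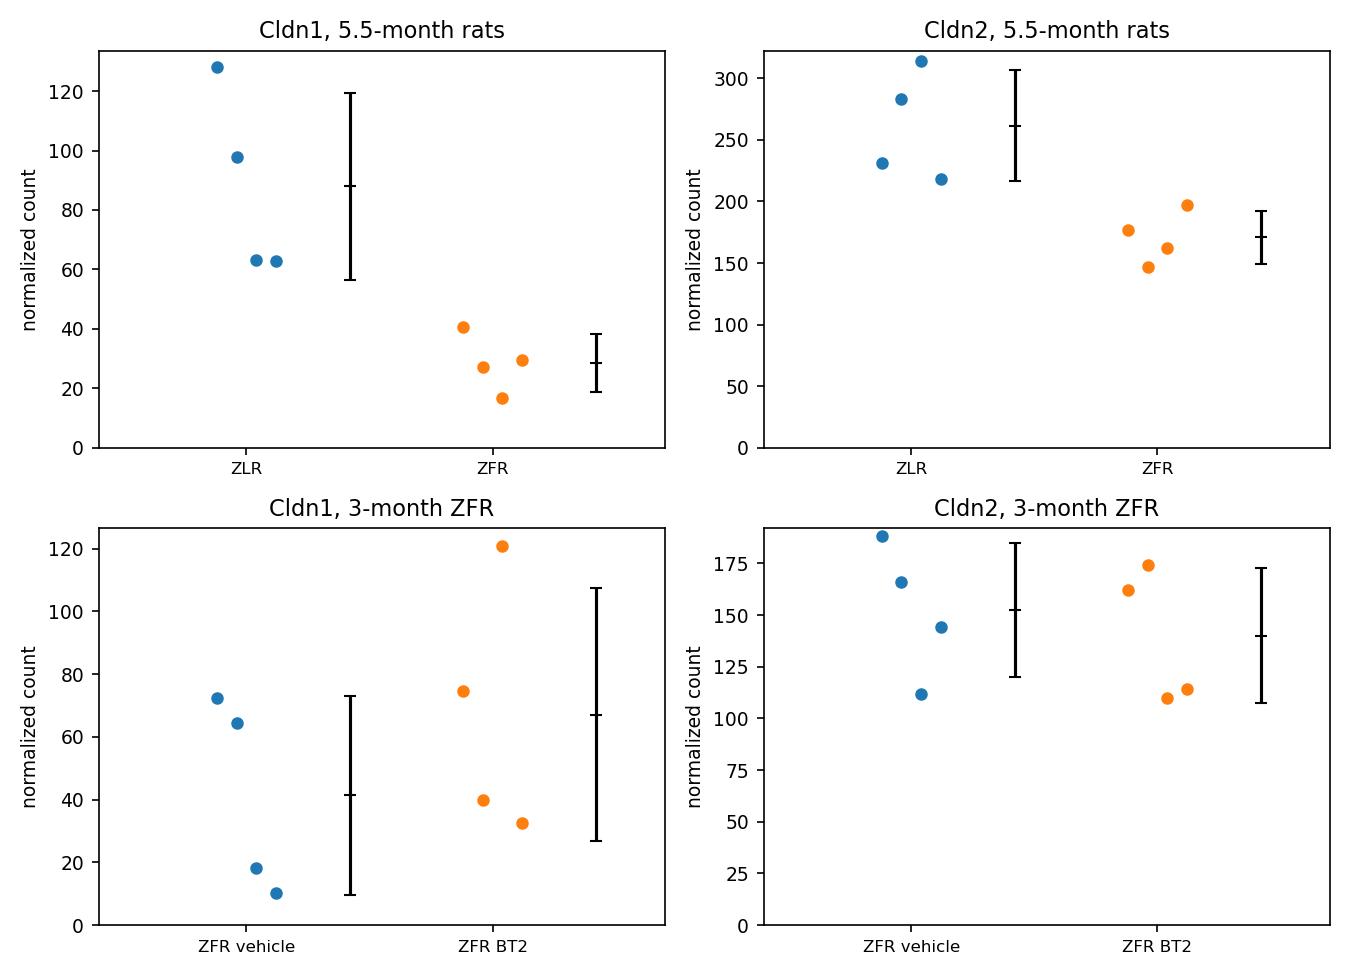
Normalized counts of Cldn1 (left) and Cldn2 (right) in each rat liver library, with mean ± SD beside each group, for ZLR and ZFR at 5.5 months (top) and for ZFR given vehicle or BT2 at 3 months (bottom). In the top row each ZFR library lies below each ZLR library, and in the bottom row the groups overlap.

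Of the other tight junction genes, 2 of 23 tested were called between ZFR and ZLR, where 4.25% of all genes tested were called. Both were higher in ZFR. Jam2, an adhesion molecule related to F11r, rose from 20.2 ± 6.78 to 71.6 ± 9.08 (SD, n = 4 each), which is 1.84 ± 0.284 in log2 units (SE, limma adjusted p = 0.00613), and stayed called in all 8 fits without 1 library. Its ZLR values ranged from 10.5 to 26.1. In ZLR replicates 3 and 4, 1 read was worth 10.5 and 10.4 counts, so Jam2 rests on few reads there. Ybx3, a Y-box factor that binds ZO-1, rose from 63.4 ± 7.28 to 97.5 ± 4.62 (SD, n = 4 each), which is 0.62 ± 0.142 in log2 units (SE, limma adjusted p = 0.0408). Its call was kept in 2 of the 8 fits, those without ZLR replicate 3 or 4, and the adjusted p reached 0.128. With TMM scaling the list gave 1 call. The median of the list was 0.36.

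The main hepatocyte connexin fell. Gjb1, connexin 32, went from 1391 ± 74.5 in ZLR to 712 ± 123 in ZFR (SD, n = 4 each), which is -0.98 ± 0.121 in log2 units (SE, limma adjusted p = 0.00199), and was called in all 8 fits without 1 library. Gjb2 rose from 63.6 ± 11.7 to 107 ± 4.82 (SD, n = 4 each), which is 0.75 ± 0.162 in log2 units (SE, limma adjusted p = 0.031). That call was lost without ZLR replicate 2 or any single ZFR library, with adjusted p up to 0.104. These were 2 of 13 adherens and gap junction genes tested, against 4.25% of all genes tested.

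Hepatocyte and zonal markers moved between ZFR and ZLR as well. The summed level of 8 pericentral markers was 5822 to 11365 in ZLR and 2596 to 5050 in ZFR, and 2 of the 4 that could be tested were called, Oat at -1.41 ± 0.267 and Cyp1a2 at -1.39 ± 0.276 (log2, SE, adjusted p = 0.0166 and 0.0209 by limma). Glul, the defining pericentral enzyme glutamine synthetase, had 0.05 ± 0.261 (SE, adjusted p = 0.931 by limma). Of 6 periportal markers, Hal fell by 1.32 on the log2 scale (adjusted p = 0.0172 by limma). Of 6 general hepatocyte markers, Ttr and Cps1 were called lower, at -0.427 ± 0.0964 and -0.581 ± 0.139 (log2, SE, adjusted p = 0.0375 and 0.0483 by limma). Of 7 endothelial markers tested, Stab2 was called higher in ZFR, at 1.16 ± 0.253 (log2, SE, adjusted p = 0.033 by limma). The summed levels of these markers overlapped at 411 to 475 in ZLR and 388 to 513 in ZFR. The cholangiocyte sums were 61.5 to 185 in ZLR and 89.3 to 110 in ZFR, and no cholangiocyte, stellate cell or macrophage marker was called (limma), with 1, 2 and 1 at an unadjusted p under 0.05. The part of these cells in the Cldn1, Cldn2 and Jam2 values was not tested.

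No member passed the test between BT2 and vehicle. Cldn1 was at 72.5, 64.5, 18.3 and 10.3 normalized counts with vehicle and at 74.7, 40, 121 and 32.6 with BT2. The groups overlapped, and the 10.3 stands for a single read. The log2 fold change was 0.90 ± 0.615 (SE, adjusted p = 0.898 by limma), with a 95% interval from -0.46 to 2.25. It was 2.11 within 1 description code and -0.32 within the other, each with 2 libraries a group. The fold change was 0.12 with quality weights, and it was 0.40 without vehicle replicate 4.

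The other 7 members tested had log2 fold changes from -0.21 ± 0.152 for F11r to 0.22 ± 0.23 for Ocln (SE, adjusted p from 0.898 to 0.993 by limma). Cldn2 was at -0.13 ± 0.215 (SE), with 188, 166, 112 and 144 counts under vehicle and 162, 174, 110 and 114 under BT2. Over the whole table, 0% of 8405 genes were called by limma, 332 had an unadjusted p under 0.05, and groups did not overlap for 2.96% of genes and for 0 members. None of the 22 other tight junction genes and none of the 13 adherens and gap junction genes was called (limma), with 1 and 0 at an unadjusted p under 0.05.

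Floxed and WT mice within the pooled group were compared with treatment as a term, as a check on what the pooled control holds. Background cannot be told apart from age here, since the floxed mice were older. Calls made up 14.7% of the 15811 genes tested, and 2 of the 9 members were called, both higher in floxed mice. Cldn14 was at 567 ± 77.1 (SD, n = 7) in WT and 718 ± 62.9 (SD, n = 6) in floxed livers, which is 0.34 ± 0.103 in log2 units (SE, limma adjusted p = 0.0634). WT livers ranged from 412 to 641 and floxed livers from 653 to 799. These ranges do not overlap, but how often this holds over all genes was not computed for this comparison. Cldn5 was at 492 ± 86.7 (SD, n = 7) and 591 ± 74.2 (SD, n = 6), which is 0.27 ± 0.124 in log2 units (SE, limma adjusted p = 0.195). The Cldn5 call was lost in 10 of 13 fits without 1 library, all but those without LNA29 replicate 4, 6 or 7, with adjusted p of 0.202 to 0.379. It was also lost with a pseudocount of 10, no minimum count, quality weights or the description code as a term. In floxed livers 7 of 8 endothelial markers had lower means on the log scale, with none called. The part of endothelial cells in the Cldn5 values was not tested.

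Cldn12 was lower in floxed livers, at 3798 ± 228 (SD, n = 6) against 4501 ± 492 (SD, n = 7) in WT. Its adjusted p was 0.0618 by limma, but the log2 fold change of -0.23 ± 0.0683 (SE) is below the fold required for a call. Cldn1 had -0.13 ± 0.0689 (SE, adjusted p = 0.274 by limma). Tjp1 and Ocln had -0.25 ± 0.116 and -0.26 ± 0.144 (SE, adjusted p = 0.202 and 0.274 by limma), and Cldn2, Cldn3 and F11r lay between -0.10 and 0.05.

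**Figure D4:**
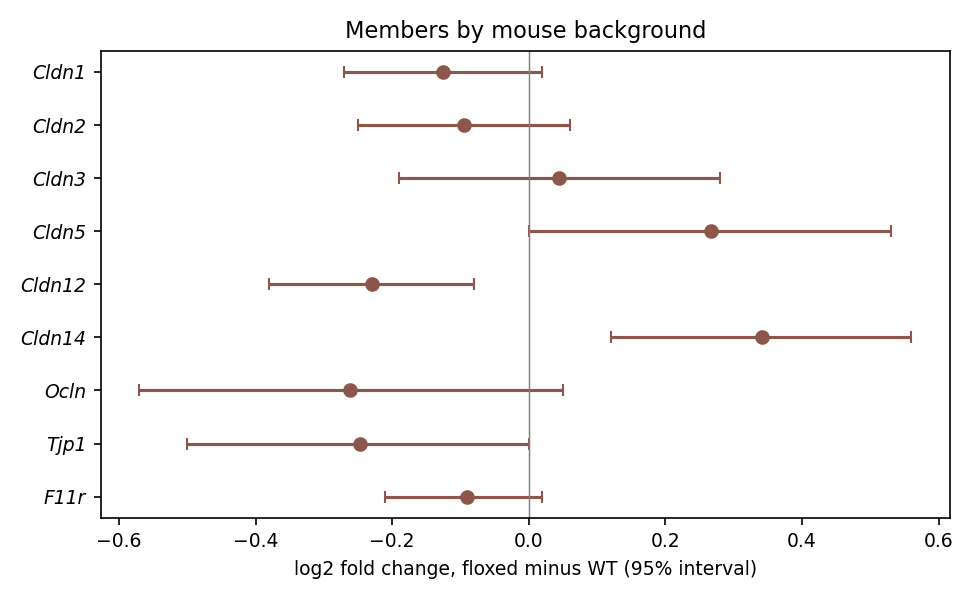
Log2 fold changes of the 9 members between floxed and WT mice of the pooled WT/Floxed group, with 95% intervals, adjusted for treatment. The interval of Cldn14 lies above 0 and that of Cldn12 below it, and that of Cldn1 includes 0.

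Of the 33 other tight junction genes tested, 5 were called between floxed and WT mice, where 14.7% of all genes tested were called. Marveld2, the tricellular junction protein tricellulin, rose by 0.27 ± 0.0689, and Crb3, a polarity protein, by 0.34 ± 0.0994 (log2, SE, adjusted p = 0.0374 and 0.0573 by limma). The scaffolds Mpdz, Patj and Magi1 fell by 0.57, 0.51 and 0.34 on the log2 scale (adjusted p = 0.0346, 0.0683 and 0.182 by limma). Marveld2 was lost as a call in 4 and Magi1 in 8 of 13 fits without 1 library. Of 14 adherens and gap junction genes, 4 were called. Ctnnd1 fell by 0.422, Nectin2 by 0.373 and Vcl by 0.318 in log2 units (limma adjusted p = 0.0437, 0.0622 and 0.179), and Jup rose by 0.299 (limma adjusted p = 0.0573). The Vcl call was lost in 8 of 13 fits without 1 library, with adjusted p up to 0.351, and the Jup call in 1. Of 7 periportal markers, 4 were called lower in floxed livers, as were Oat of 8 pericentral markers and Cps1 and Tat of 6 hepatocyte markers, while Ttr was called higher. The part of zonation in these values was not tested.

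The genes whose pattern was most like that of Cldn1 were taken by Pearson's r of log2(count + 1). Over the 13 WT/Floxed libraries they were Kdelc1 (r = 0.895), Setdb1 (r = 0.89) and Snx24 (r = 0.89), among 12875 genes with a mean over 50. Over the 8 libraries labelled L-Sirt1 KO they were Dolk (r = 0.994), Kmt5c (r = 0.975) and Cox11 (r = 0.975), among 12912. The points share the treatment groups, so these r values are descriptions of a common split between LNA29 and saline as much as of library-to-library likeness.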

How the data were processed

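Poly(A) RNA-seq libraries of mouse and rat liver were single-end. Reads were aligned by the authors with STAR to mm10 or rn6 and quantified with Salmon, and the deposited signal values are the resulting gene counts after division by DESeq2 factors, in 4 tables normalized separately. All 37 value columns matched a label. Low values were whole multiples of a smallest step for 70.2% to 90.6% of values (tolerance 0.02 of a read), so no count test was run, and the read numbers given are estimates from that step.

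Log2(value + 1) was fitted with limma 3.58.1 (R 4.3.3, trend) for genes with a mean of at least 10 and a symbol occurring once, with Benjamini-Hochberg adjustment over each table. Entries with no symbol held 0.0134% to 0.0461% of the counts and repeated symbols 0.0897% to 2.17%, and both were left out. The fits were also run on simulated data. These gave all libraries the same spread for a gene, so they do not cover the uneven depth of the rat libraries. The labels give each library its own identifier, and the study describes its replicates as biological. Named were all members, each called gene of the junction lists (at most the 6 with the largest change), Sirt1 and the 3 genes most like Cldn1. Members and lists were chosen with earlier results of these data known. Alternatives were another pseudocount, no minimum, TMM, quality weights, the description code, background (WT or floxed) as a term in WT/Floxed mice, a replicate block and leaving out each library. Same-numbered libraries were not taken as pairs, since their deviations correlated at -0.281 to 0.241. Sites in rat 3′ UTRs were not analysed here.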

Additional observations from a re-analysis of the deposited data

Results flagged for a closer look

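In 3 of 72 groups of member values, 1 library stood far from the rest of its group by Dixon's criterion, and chance alone flags about 1 in 20 groups, or 3.6 here. Cldn3 in saline replicate 1 labelled L-Sirt1 KO was at 7493 normalized counts, against 5551 to 5822 in the other libraries. Cldn5 in ZLR replicate 3 was at 10.5, against 0 to 1.3, and this value is 1 read in a library of 188000 reads. Ocln in ZFR replicate 4 was at 26.3, against 47.8 to 51.5.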

How the results depend on the processing

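Of 402 alternative values of members in the rats and between floxed and WT mice, 344 kept their direction and their side of the threshold, 21 lost a call, 9 gained one and 28 changed sign. Of the 549 alternative values for LNA29 and for the difference between its fold changes, 40 changed sign, 5 lost a call and 1 gained one, and all moved by less than the spread between libraries. The counts of genes called over whole tables moved more, and the cause was not tested. With no minimum count they were 396 (WT/Floxed), 160 (L-Sirt1 KO label) and 241 (ZFR against ZLR), against 688, 297 and 367. With quality weights they were 1308, 804 and 1169, and 1220 against 7 for the difference between LNA29 fold changes. TMM gave 238 for ZFR against ZLR. The description code as a covariate gave 103 under the L-Sirt1 KO label and 19 for the difference. BT2 gave 1 call with a pseudocount of 10, with quality weights and without libraries under 500000 reads. Without 1 library each, the counts ranged from 381 to 1006 (WT/Floxed), 77 to 426 (L-Sirt1 KO label), 225 to 379 (ZFR against ZLR), 0 to 2 (BT2), 1409 to 2751 (floxed against WT) and 0 to 233 (the difference).

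The replicate block, which treats libraries with the same number as paired although they were not taken as pairs, gave 55 calls in WT/Floxed mice, 145 under the L-Sirt1 KO label, 221 for ZFR against ZLR and 0 for the difference. It keeps fewer libraries in WT/Floxed mice. With it the Cldn1 calls in WT/Floxed mice and for the difference were lost, and Ocln under the L-Sirt1 KO label met the thresholds. Leaving out all libraries under 5000000 reads was not run, as too few remained.

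Sign changes concerned members not called in that comparison. With LNA29 they were Cldn2, Cldn3, Cldn5, Cldn14 and Tjp1. Without saline replicate 4 or 5 of WT/Floxed, Cldn14 was -0.03 and Tjp1 -0.07. Between floxed and WT mice, Tjp1 was called without LNA29 replicate 2, 5 or 8, Ocln without 2 or 8, and Cldn12 with quality weights. Between ZFR and ZLR, Ocln was -0.01 with a pseudocount of 10 and 0 with TMM, Cldn3 was 0.03 and Cldn14 0.08 with quality weights, and without libraries under 500000 reads Cldn12 was -0.05 and Cldn14 0.05. Without 1 library, Ocln ranged from -0.31 to 0.34, Cldn14 from -0.35 to 0 and Tjp1 from -0.24 to 0.04. With BT2, Cldn3 was -0.01 with TMM, Tjp1 was -0.03 with quality weights, and without libraries under 500000 reads Cldn14 was 0.09 and Tjp1 -0.04. Without 1 library, Cldn3 ranged from -0.05 to 0.17, Cldn14 from -0.44 to 0.05 and Tjp1 from -0.15 to 0.16. Cldn3 between floxed and WT mice ranged from -0.03 to 0.11. In the shallowest rat libraries 1 read is worth up to 10.5 counts, which limits values in those libraries, also above that level. For Cldn1 in ZLR replicate 3, at 63.2, the exact 95% Poisson interval reached from 23.2 to 138.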
